A study of Mus musculus with 6 samples.

Results

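The genes described here encode the potassium, HCN and sodium channels of the cerebellum, with the auxiliary subunits that travel with them. Members were the protein-coding genes whose mouse symbol begins with Kcn, with Hcn and a number, or with Scn and a number, the epithelial sodium channel genes (*Scnn1*) being left out, and whose mean expected count over the 6 mice was at least 10. Of 112 protein-coding genes with such a name, 85 met the count minimum, out of 53715 genes in the table, and 5 noncoding genes with matching names were not members. Just inside the minimum were *Scn7a*, *Kcnk4* and *Kcnt2*, with mean counts of 10.2, 10.3 and 11.2, and just outside it were *Kcnh6*, *Kcnh5* and *Scn9a*, with 9.67, 9.33 and 9.17. Of the 85 members, 84 passed the filter on low counts and were tested, and *Scn7a* was not.

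Neurons hold a resting potential through potassium channels that leak at rest, fire when voltage-gated sodium channels open, and repolarize when voltage-gated potassium channels follow. In the cerebellum, Kv3 channels let Purkinje cells and interneurons fire at high rates, calcium-activated channels shape the pauses between spikes, HCN channels carry an inward current at negative potentials, and inward rectifiers in Bergmann glia and astrocytes clear extracellular potassium. Auxiliary subunits set where the pore-forming subunits sit and how fast they open and close.

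Whole cerebella were taken from male mice aged 4 weeks, labelled C57BL/6 and described as C57BL/6J in the study's methods, 3 control and 3 *Slc39a8*-NSKO, to ask how loss of *Slc39a8* from neurons alters the transcriptome. *Slc39a8* encodes the manganese and zinc transporter ZIP8. In NSKO (neuron-specific knockout) mice a floxed *Slc39a8* allele was deleted by Cre under the Synapsin I promoter, which is active in neurons, so the other cell types of the tissue are meant to keep the gene. The control mice are labelled WT, whereas the study names *Slc39a8* fl/fl mice without Cre as its controls, and the counts do not show which of these the libraries came from. The labels number the libraries of each genotype 1 to 3. The study's methods describe 3 mice per genotype, whereas a figure legend of the study calls the samples technical triplicates. They are called mice 1 to 3 here, and if they were technical repeats the SDs and p values would measure technical spread only.

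Between 14431260 and 20844267 counts per mouse fell on genes, and the members held 0.851% of all counts. *Slc39a8* itself was at 4.78, 3.20 and 2.83 CPM (counts relative to library size, with TMM factors) in control mice 1 to 3 and at 1.90, 2.05 and 2.18 CPM in NSKO mice 1 to 3, a log2 fold change of -0.83 that did not pass the threshold (edgeR adjusted p = 0.534). Markers of granule cells summed to between 6083 and 6608 CPM and those of Purkinje cells to between 8902 and 10440 CPM in the 6 mice, whereas brainstem markers summed to between 0.835 and 1.5 CPM. The 6 forebrain markers summed to 9.41, 7.58 and 9.19 CPM in control and 6.86, 7.14 and 7.33 CPM in NSKO mice, which did not overlap. Of the 3 tested, 1 was lower at an unadjusted p below 0.05, beside 3.14% of all genes tested, and none passed the threshold. The 7 microglia markers summed to 103.7 to 114.1 CPM in control and 120.9 to 123.8 CPM in NSKO mice, which did not overlap either. Of these 7, 1 was higher at an unadjusted p below 0.05, beside 2.25% of all genes tested, and none passed the threshold. The summed levels of the oligodendrocyte, endothelial and pericyte, and inhibitory interneuron markers overlapped between genotypes. Log2 fold changes were above 0 for 2 of 9, 2 of 8 and 7 of 10 of these markers. The part of the forebrain and microglia lists in any channel result was not tested. Of 9 heart muscle markers, 7 were tested, and 3 of these, *Myh6*, *Actc1* and *Tnnt2*, passed the threshold as higher in NSKO mice. The heart muscle list summed to between 3.21 and 5.35 CPM in control mice and between 15.5 and 16.6 CPM in NSKO mice, and the part of this signal in any channel result was not tested.

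No member passed an adjusted p of 0.05 in edgeR's quasi-likelihood test, in either direction, where 0.098% of the 16330 genes tested did. The summed CPM of the members was 8702, 8265 and 8328 in control mice 1 to 3 and 8772, 8343 and 8570 in NSKO mice 1 to 3, which overlapped (two-sided exact permutation p = 0.5). In RNA from whole tissue, fewer cells of a type and less RNA per cell cannot be told apart. At an unadjusted p below 0.05 stood 7 of the 84 members, 8.33% against 5.39% of all genes tested. Without control mouse 1 the count was 14, 16.9% of members against 8.60% of all genes. It was 5 without control mouse 2 (5.88% against 4.33%) and 5 without NSKO mouse 1 (5.88% against 5.09%). The 3 higher members included *Kcnh1* and *Kcnc4* (3.57% against 2.25% of all genes), and the lower members were *Kcnk10*, *Kcnn1*, *Kcnh7* and *Kcnk5* (4.76% against 3.14%). DESeq2, the tool the study used, called 1 member, *Kcnk10*, where it called 0.171% of the 21681 genes it tested.

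Members lay on both sides of no change, and 17 of 84 differed by 1.2-fold or more in either direction, 20.2% against 13.7% of all genes tested. The log2 fold change (NSKO over control) was above 0 in 47 members and below 0 in 37, 56.0% above 0 against 50.5% of all genes tested. The median over members was 0.04, beside 0.0011 over all genes, and single members ranged from -0.77 for *Kcnk5*, a scarce gene, to 0.49 for *Kcnv2*. The 3 mice of one genotype all lay above the 3 of the other for 12 members, 14.3% against 10.3% of all genes. Of these, *Kcna6*, *Kcnc4*, *Kcnh1*, *Kcnh3*, *Kcnn3*, *Kcnv2* and *Scn3b* were higher in NSKO mice (8.33% against 5.07%), and *Kcng2*, *Kcnh7*, *Kcnk10*, *Kcnn1* and *Kcnrg* were lower (5.95% against 5.26%). With 3 mice against 3, an exact permutation test of a single gene cannot go below p = 0.1. *Kcna6*, *Kcng2*, *Kcnn3* and *Kcnv2* were named for this separation after their values were seen.

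**Figure D1:**
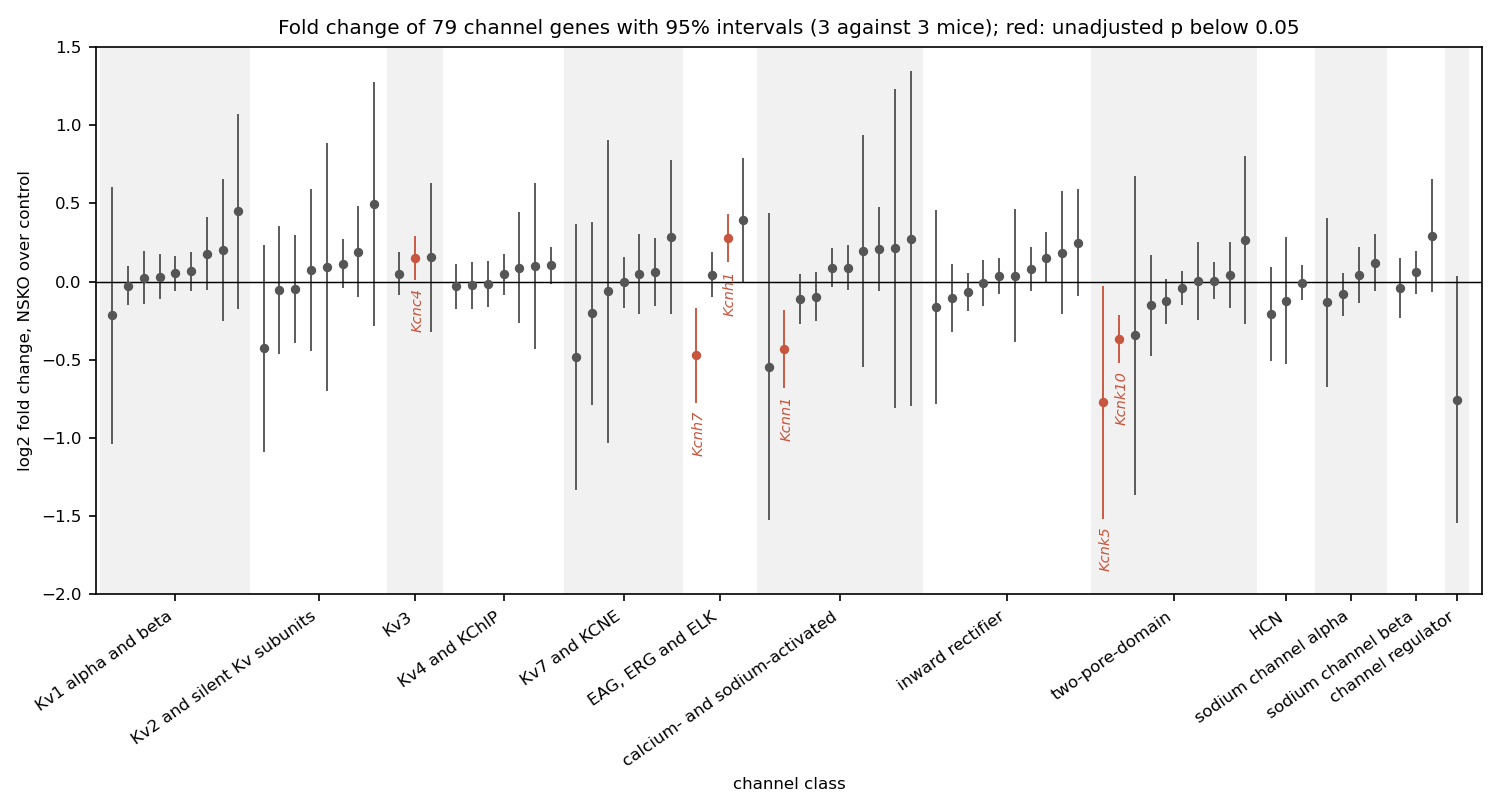
Each point is 1 of 79 channel genes tested, ordered by channel class and by size within the class, with the log2 fold change (NSKO over control) on the vertical axis and edgeR's 95% interval as the bar. The intervals of 6 genes, in red, leave out 0, and those of the scarcer genes span more than 1 log2 unit.

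The intervals, which reflect both depth and the spread between mice, limited how small a change could be seen. The half-width of the 95% interval of the log2 fold change ranged from 0.104 to 1.07 over members, with a median of 0.218. For the 57 members with a mean count of 100 or more the median half-width was 0.154, a change of 1.11-fold, and 49 of these 57 had an absolute log2 fold change under 0.2. The whole interval lay within 0.5 of 0 for 52 of 84 members and within 1 of 0 for 72 of 84. Changes smaller than these intervals were not detectable here.

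The lowest p among members belonged to *Kcnk10*, which encodes TREK-2, a mechanosensitive and lipid-sensitive potassium leak channel. The gene lies at chr12:98429437-98578310 on the minus strand of mm10 (GENCODE vM21, ENSMUSG00000033854.10). Its level was 58.3, 61.7 and 52.6 CPM in control mice 1 to 3 and 43.1, 44.4 and 46.3 CPM in NSKO mice 1 to 3. Each NSKO mouse was below each control mouse, and the difference between the means was larger than the SD of either genotype. The means were 57.5 ± 4.64 CPM in control and 44.6 ± 1.62 CPM in NSKO mice (SD, n = 3), a log2 fold change of -0.37 (SE 0.0707, 95% interval -0.52 to -0.22). The unadjusted p of 0.00015 became an edgeR adjusted p of 0.0907 over all genes. The adjusted p was 0.0163 in DESeq2 and 0.000281 in edgeR with no filter on low counts, and over all 15 alternatives fitted for this gene it ranged from 0.000281 to 0.386. A transcript of unknown coding status on the same strand inside the gene, 5330409N07Rik, had 20, 12 and 10 counts in control and 4, 8 and 15 in NSKO mice, far fewer than the 818 to 1208 of *Kcnk10*.

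*Kcnh1* encodes EAG1, a voltage-gated potassium channel of axons and presynaptic terminals, and lies at chr1:192190774-192510159 on the plus strand. It stood at 50.6, 45.8 and 53.4 CPM in control mice and at 65.0, 57.6 and 59.2 CPM in NSKO mice. All NSKO mice were above all control mice, and NSKO mouse 1 was the highest. The log2 fold change was 0.28 (SE 0.0727, unadjusted p = 0.00197), with an edgeR adjusted p of 0.407. With no filter on low counts the edgeR adjusted p was 0.0173, and over all alternatives it ranged from 0.0173 to 0.878.

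*Kcnn1* encodes SK1, a small-conductance calcium-activated potassium channel that contributes to the afterhyperpolarization, and lies at chr8:70842049-70863258 on the minus strand. Control mice had 10.1, 10.1 and 10.3 CPM, and NSKO mice had 7.51, 7.65 and 7.44 CPM. The mice of each genotype were closer together than counting error alone gives: the SD was 0.103 CPM in control and 0.108 CPM in NSKO mice, where counting alone gives 0.786 and 0.623 CPM. The log2 fold change was -0.43 (SE 0.115, unadjusted p = 0.00225), and the edgeR adjusted p was 0.448.

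*Kcnh7* encodes ERG3, a slowly deactivating potassium channel related to the cardiac hERG channel, and lies at chr2:62693414-63184287 on the minus strand. Its level was 9.36, 8.69 and 12 CPM in control mice and 7.06, 6.93 and 7.65 CPM in NSKO mice. Control mouse 3 was the highest, and the lowest control mouse was still above the highest NSKO mouse. The log2 fold change was -0.47 (SE 0.141, unadjusted p = 0.0052), with an edgeR adjusted p of 0.615. Its expected counts were not whole numbers, at 193.59, 124.86 and 186.15 in control and 141.03, 135.49 and 144.45 in NSKO mice. *Gca*, on the other strand of the same stretch, had 162.41, 122.14 and 131.85 counts in control and 161.97, 207.51 and 150.55 in NSKO mice. In each mouse the counts of the pair add up to a whole number, so reads had been divided between these genes. The log2 fold change of *Gca* was 0.12, and the part of this division in the *Kcnh7* difference was not tested. Without control mouse 3 the log2 fold change of *Kcnh7* was -0.33.

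**Figure D2:**
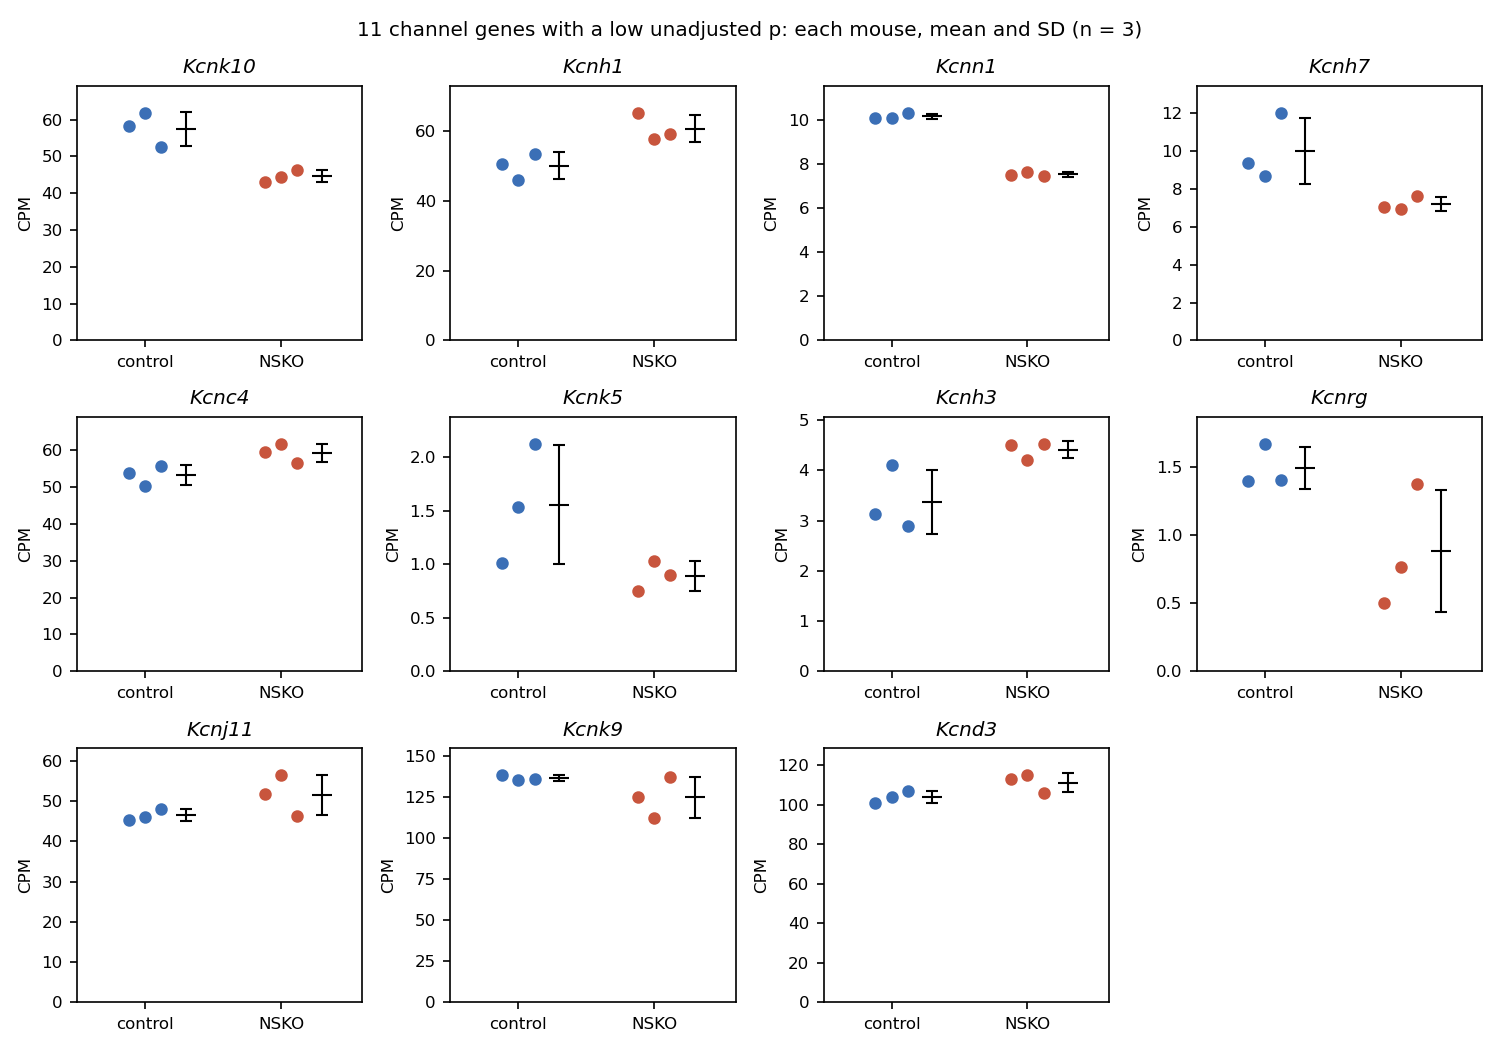
Of the 12 channel genes with the lowest unadjusted p, 11 are shown, with CPM on the vertical axis from 0, a point for each mouse (blue control, red NSKO) and the mean with its SD (n = 3) beside the points. The mice of the genotypes are apart in *Kcnk10*, *Kcnh1*, *Kcnn1*, *Kcnh7*, *Kcnc4*, *Kcnh3* and *Kcnrg*, and overlap in *Kcnk5*, *Kcnj11*, *Kcnk9* and *Kcnd3*.

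Start-site sequences of the 3 members with the lowest p are shown because the study also assayed cAMP-responsive transcription, whose element (CRE) has the letters TGACGTCA. The windows run from 250 bases before to 50 bases after a RefSeq start site in GRCm38.p6, 5′ to 3′ on the gene's strand. Capitals mark a match to the shorter CRE core TGACG or to the NR4A receptor element (NBRE) AAAGGTCA, on either strand.
Kcnk10 window 1, chr12:98575078-98575377, minus strand: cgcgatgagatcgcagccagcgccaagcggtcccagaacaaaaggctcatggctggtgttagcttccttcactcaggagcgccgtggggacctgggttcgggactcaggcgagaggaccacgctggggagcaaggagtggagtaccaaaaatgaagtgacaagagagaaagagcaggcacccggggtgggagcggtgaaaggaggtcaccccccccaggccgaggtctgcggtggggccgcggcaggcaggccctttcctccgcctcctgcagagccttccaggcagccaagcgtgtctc
Kcnk10 window 2, chr12:98578164-98578463, minus strand: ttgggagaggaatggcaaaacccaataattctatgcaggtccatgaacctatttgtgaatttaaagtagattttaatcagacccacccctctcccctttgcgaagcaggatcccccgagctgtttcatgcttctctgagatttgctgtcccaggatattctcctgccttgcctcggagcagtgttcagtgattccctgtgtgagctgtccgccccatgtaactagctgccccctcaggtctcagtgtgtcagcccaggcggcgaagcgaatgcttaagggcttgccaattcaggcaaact
Kcnh1, chr1:192190527-192190826, plus strand: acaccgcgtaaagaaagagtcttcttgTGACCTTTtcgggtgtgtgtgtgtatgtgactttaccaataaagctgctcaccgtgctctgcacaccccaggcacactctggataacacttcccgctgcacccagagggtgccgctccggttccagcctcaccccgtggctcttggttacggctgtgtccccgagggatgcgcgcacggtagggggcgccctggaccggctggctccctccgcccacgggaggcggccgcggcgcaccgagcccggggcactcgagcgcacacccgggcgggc
Kcnn1 window 1, chr8:70856959-70857258, minus strand: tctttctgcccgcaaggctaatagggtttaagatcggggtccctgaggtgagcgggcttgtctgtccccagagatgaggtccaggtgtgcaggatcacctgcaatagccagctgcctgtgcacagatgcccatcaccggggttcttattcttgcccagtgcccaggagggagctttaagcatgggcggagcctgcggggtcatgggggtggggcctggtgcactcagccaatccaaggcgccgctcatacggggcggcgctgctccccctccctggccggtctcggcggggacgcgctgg
Kcnn1 window 2, chr8:70863209-70863508, minus strand: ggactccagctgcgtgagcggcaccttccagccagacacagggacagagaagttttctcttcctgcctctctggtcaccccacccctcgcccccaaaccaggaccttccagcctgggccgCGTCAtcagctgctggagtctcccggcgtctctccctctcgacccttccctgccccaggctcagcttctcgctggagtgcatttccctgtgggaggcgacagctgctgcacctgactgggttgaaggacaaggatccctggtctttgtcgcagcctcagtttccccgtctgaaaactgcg
The 2 *Kcnk10* windows and the first *Kcnn1* window held none of these letters, the *Kcnh1* window held the NBRE and the second *Kcnn1* window held the core. RefSeq windows were found for 59 of the 85 members, 85 windows in all, and not for 26. The full CRE was in 0 of these 85 windows, beside 1.79% of the 32851 windows of all genes, and the core, which the full CRE contains, was in 14.1% against 20.8%. The NBRE was in the *Kcnh1* window and in 1 of 2 *Scn8a* windows, 2.35% against 1.51%, and the AP-1 element, spelled TGACTCA, was in 2.35% against 5.20%. These matches describe letters in the windows and not binding. The median GC content was 57.7% in the members' windows and 52.7% in all windows.

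A few channel genes stood far above the rest per length. Levels per length, in CPM per kilobase of merged exon averaged over the 6 mice, had a median of 4.28 over the members and were lowest for *Scn7a*, at 0.0727. The 10 highest members held 63.8% of the members' summed level per length. Among them, 8 are given here. They included *Kcnk1* (91.0 CPM per kilobase), the leak channel TWIK-1, *Scn2b* (89.8), a beta subunit that anchors and tunes sodium channels, and *Kcnc1* (82.4), a Kv3 subunit of fast-spiking neurons. Below them came *Hcn2* (59.5), a pacemaker channel, *Kcng4* (51.4), a silent subunit that modifies Kv2 channels, *Kcnj10* (45.8), the glial inward rectifier Kir4.1, *Kcnd2* (43.1), the A-type subunit Kv4.2 of granule cells, and *Kcnj9* (42.8), the G-protein-gated subunit GIRK3. None of these 8 had an unadjusted p below 0.05, and their log2 fold changes lay between -0.07 and 0.12.

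**Figure D3:**
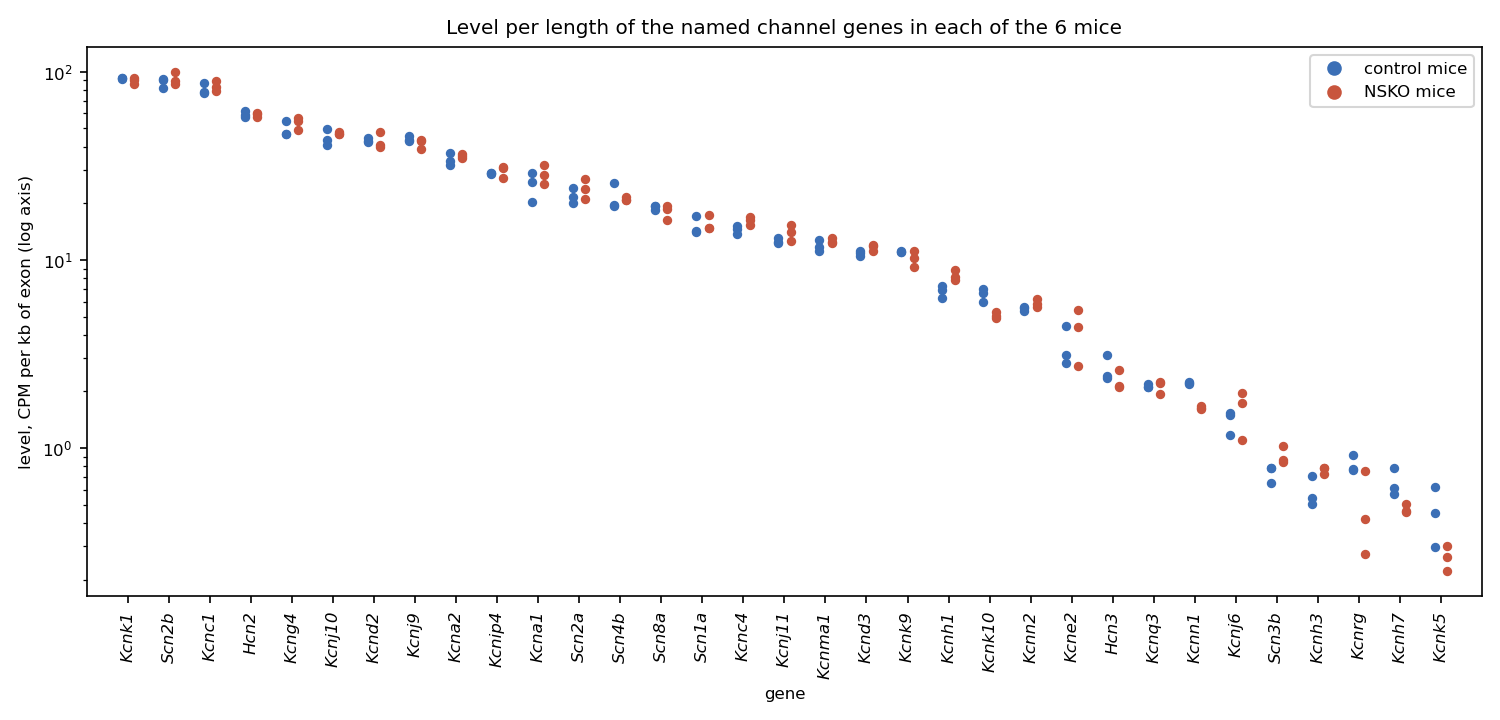
Level per length of the 33 named channel genes in each mouse, in CPM per kilobase of exon on a log axis, ordered by mean level, with control mice in blue on the left and NSKO mice in red on the right of each gene. The highest of these genes is *Kcnk1* and the lowest *Kcnk5*, and for most genes the points of both genotypes lie on top of each other.

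Of 12 channel classes, the medians of 4, namely Kv1, Kv2 with the silent subunits, Kv3, and EAG, ERG and ELK, stayed above 0 whichever mouse was left out, and those of the other 8 changed sign without some mouse.

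The Kv3 channels repolarize fast-spiking cerebellar neurons. The 4 Kv3 genes had a median log2 fold change of 0.11, or 0.04 without control mouse 2. *Kcnc4*, the Kv3.4 subunit, stood at 53.7, 50.3 and 55.6 CPM in control and 59.5, 61.5 and 56.4 CPM in NSKO mice. The highest control mouse was just below the lowest NSKO mouse, and the log2 fold change of 0.15 had an unadjusted p of 0.0351 and an edgeR adjusted p of 0.908. *Kcnc1* was at 765 ± 55.3 CPM in control and 793 ± 51.8 CPM in NSKO mice (SD, n = 3), with a log2 fold change of 0.05.

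Among the 9 Kv1 alpha and beta genes, 7 were above 0 and the median log2 fold change was 0.05, or 0.02 without control mouse 2 and 0.12 without control mouse 1. *Kcna1*, the axonal Kv1.1 subunit that is mutated in episodic ataxia, was at 139, 97.1 and 124 CPM in control and 152, 121 and 135 CPM in NSKO mice. Control mouse 2 was the lowest of the 6, and the other control mice lay within the range of the NSKO mice. Its log2 fold change was 0.18 (SE 0.108, unadjusted p = 0.124), and without control mouse 2 it was 0.05. *Kcna2*, its partner at juxtaparanodes, was at 406 ± 31.5 CPM in control and 424 ± 11.5 CPM in NSKO mice, a log2 fold change of 0.06.

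The 9 Kv2 and silent Kv subunit genes had a median log2 fold change of 0.09, or 0.14 without NSKO mouse 1. *Kcng4* was at 188 ± 18.6 CPM in control and 204 ± 14.7 CPM in NSKO mice (log2 fold change 0.12).

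The 7 Kv4 and KChIP genes, which make the A-type current of granule cells, had a median log2 fold change of 0.05 and a range of -0.03 to 0.10. *Kcnd2* was at 219, 230 and 222 CPM in control and 248, 211 and 204 CPM in NSKO mice, so that NSKO mouse 1 was the highest and NSKO mice 2 and 3 the lowest. *Kcnd3*, the Kv4.3 subunit, was at 104 ± 2.75 and 112 ± 4.85 CPM (log2 fold change 0.10, unadjusted p = 0.0865). *Kcnip4*, a calcium-binding KChIP subunit, was at 105 ± 0.608 and 108 ± 7.56 CPM.

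The 8 Kv7 and KCNE genes had a median log2 fold change of -0.02, with 3 above 0, or 4 with library size alone or with length and GC offsets. *Kcnq3* encodes a subunit of the M-current channels that limit repetitive firing. It was at 31.3 ± 0.685 CPM in control and 31.2 ± 2.52 CPM in NSKO mice, with a log2 fold change between -0.0072 and 0.0035 in all fits that kept the 6 mice. *Kcne2*, a subunit most abundant in the choroid plexus epithelium, was at 5.55, 7.86 and 5.01 CPM in control and 7.81, 9.60 and 4.83 CPM in NSKO mice, and *Kcnj13*, an inward rectifier of the same epithelium named after its values were seen, was at 4.97, 5.56 and 4.37 CPM and at 5.76, 6.62 and 5.31 CPM. In both genes mouse 2 was the highest and mouse 3 the lowest of each genotype. The 8 choroid plexus markers summed to 1311, 1560 and 1090 CPM in control and 1515, 2087 and 1282 CPM in NSKO mice, with mouse 2 the highest and mouse 3 the lowest of each genotype as well. None of the 8 markers passed the threshold, and 5 of 8 were higher at an unadjusted p below 0.05, beside 2.25% of all genes tested. No marker was at 0 in all samples, and the part of this tissue in the levels of the 2 channel genes was not tested.

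The 4 EAG, ERG and ELK genes had a median log2 fold change of 0.16, with 3 above 0 and *Kcnh7* below it. Their summed level was 112.7, 103.8 and 112.3 CPM in control mice and 125.6, 116.4 and 118.0 CPM in NSKO mice, which did not overlap (exact permutation p = 0.1, the smallest possible). Among the summed levels of the 12 channel classes, these and those of the K2P family were the 2 that did not overlap at this p, and the other 10 had exact permutation p values of 0.2 to 1. The count of 2 class sums is a description, with no background share beside it. *Kcnh1* and *Kcnh2* made up most of the EAG, ERG and ELK sum. Its means were 109.6 CPM in control and 120.0 CPM in NSKO mice, beside 49.9 and 60.6 CPM for *Kcnh1* alone. The sum is thus not independent of the *Kcnh1* values above. *Kcnh2*, the ERG1 channel, named after its values were seen, was at 46.3 ± 2.96 CPM in control and 47.8 ± 1.21 CPM in NSKO mice. *Kcnh3*, an ELK channel, was at 3.14, 4.10 and 2.89 CPM in control and 4.51, 4.21 and 4.52 CPM in NSKO mice (log2 fold change 0.39) with an unadjusted p of 0.0527.

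Of the 10 calcium- and sodium-activated genes, 6 were above 0 and the median log2 fold change was 0.09. *Kcnma1*, the large-conductance BK channel, was at 201 ± 13.2 CPM in control and 214 ± 5.82 CPM in NSKO mice (log2 fold change 0.09, 95% interval -0.03 to 0.21). *Kcnn2*, the SK2 channel of Purkinje cells, was at 41.5, 40.2 and 42.0 CPM in control and 41.9, 43.4 and 46.4 CPM in NSKO mice. Only the lowest NSKO mouse lay within the control range, and the unadjusted p was 0.195. *Kcnn3*, the SK3 channel, was at 8.54, 8.07 and 8.48 CPM in control and 9.16, 9.04 and 10.8 CPM in NSKO mice (log2 fold change 0.21, unadjusted p = 0.116).

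The SK channels share the job of turning a rise in calcium into a potassium current. Of the summed SK level per length, *Kcnn1* made up 25.7%, 26.3% and 25.8% in control mice and 20.1%, 20.0% and 18.3% in NSKO mice. *Kcnn2* made up 64.7% ± 0.191 in control and 69.6% ± 0.485 in NSKO mice, and *Kcnn3* 9.37% ± 0.141 and 10.9% ± 0.678 (SD, n = 3). The 3 shares are parts of 1 whole, so they are not independent of each other or of the *Kcnn1* values above. Over 44 such shares in 12 families, the genotypes did not overlap for 8, with *Kcnn2*, *Kcnn3*, *Kcnk2*, *Scn2a* and *Scn3b* taking a larger share and *Kcnn1*, *Kcnk10* and *Kcnj9* a smaller share in NSKO mice. This count is a description, since shares were not computed for other genes and *Kcnk2* was named after its values were seen. In every family the shares are parts of 1 whole, so 1 shift can be counted more than once. The level of *Kcnk2* itself was 15.1 ± 2.08 CPM in control and 15.2 ± 1.44 CPM in NSKO mice (log2 fold change 0.0024).

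**Figure D4:**
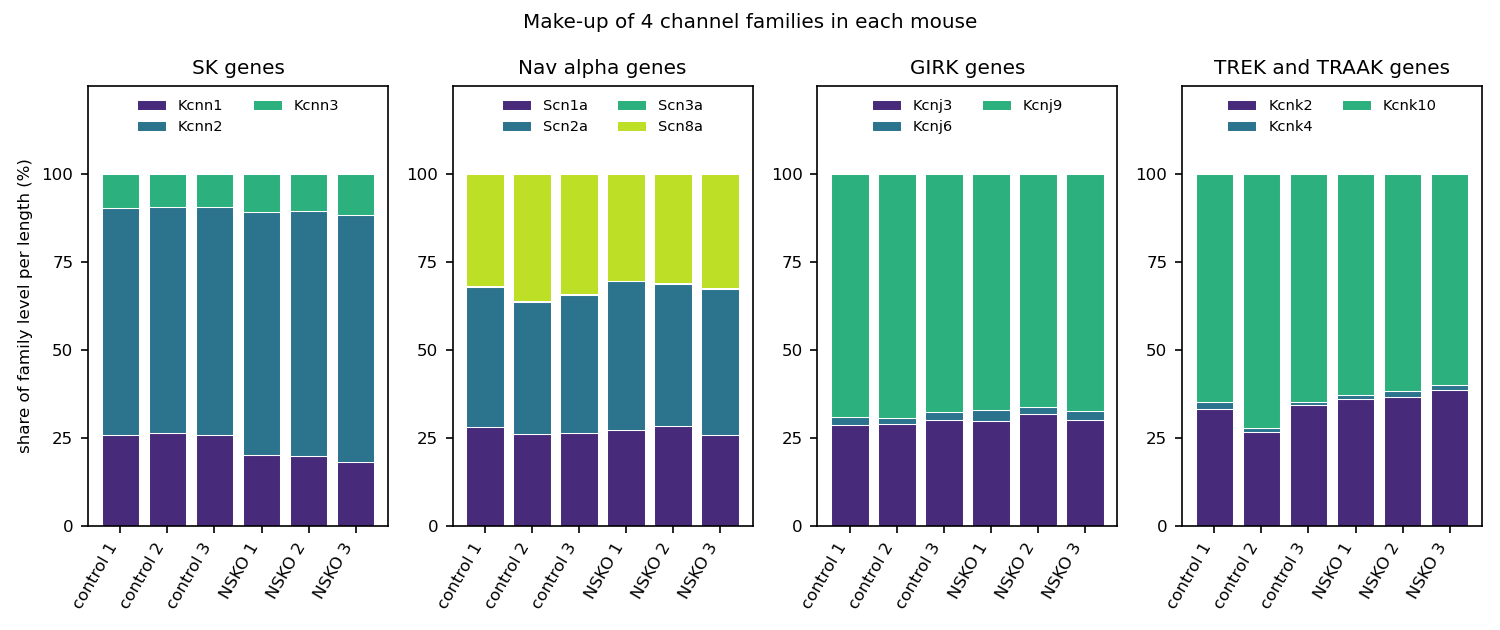
Make-up of the SK, sodium channel alpha, GIRK, and TREK and TRAAK families in each of the 6 mice, as the percentage of the family's summed CPM per kilobase. The *Kcnn1* band is wider in the control bars than in the NSKO bars, and smaller shifts show in *Kcnj9*, at 68.6% in control and 66.9% in NSKO mice, and *Kcnk10*, at 67.3% and 61.5%.

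The 10 inward rectifier genes had a median log2 fold change of 0.04 and a range of -0.16 to 0.25. *Kcnj10* was at 268, 220 and 235 CPM in control and 258, 252 and 254 CPM in NSKO mice, so the NSKO mice lay inside the control range. The 10 Bergmann glia and astrocyte markers summed to between 4104 and 4357 CPM in control and between 4334 and 4453 CPM in NSKO mice. None passed the threshold, and 3 of 10 were higher at an unadjusted p below 0.05, beside 2.25% of all genes tested. The part of these markers in the levels of the inward rectifier genes was not tested. *Kcnj11*, the Kir6.2 pore of the ATP-sensitive channel, was at 46.4 ± 1.47 and 51.5 ± 5.06 CPM (log2 fold change 0.15, unadjusted p = 0.0659). *Kcnj9* was at 188 ± 6.54 and 179 ± 10.4 CPM, and *Kcnj6*, the GIRK2 subunit of granule cells, at 10.7 ± 1.54 and 12.2 ± 3.43 CPM.

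The 10 leak channel genes of the K2P family had a median log2 fold change of -0.08, with 4 above and 6 below 0, or 2 above and 8 below with length and GC offsets. Their summed level was 580.1, 575.4 and 562.7 CPM in control mice and 552.2, 526.8 and 551.1 CPM in NSKO mice. Each NSKO mouse was below each control mouse (exact permutation p = 0.1), the other of the 2 class sums in 12 that separated the genotypes. *Kcnk10* is part of this sum, which is thus not independent of the *Kcnk10* values above. *Kcnk9*, the TASK-3 standing-outward-current channel of granule cells, was at 138, 135 and 136 CPM in control and 125, 112 and 137 CPM in NSKO mice. NSKO mice 1 and 2 were below the control mice and NSKO mouse 3 lay among them, with a log2 fold change of -0.13 and an unadjusted p of 0.0838. *Kcnk1* was at 206 ± 2.42 and 201 ± 7.29 CPM. *Kcnk5*, the pH-sensitive TASK-2, was at 1.01, 1.53 and 2.12 CPM in control and 0.751, 1.03 and 0.903 CPM in NSKO mice, which overlapped, with the lowest log2 fold change of all members, -0.77 (95% interval -1.52 to -0.03, edgeR adjusted p = 0.908). *Kcnrg*, which encodes a soluble protein that interferes with Kv channel assembly, was at 1.40, 1.67 and 1.41 CPM in control and 0.501, 0.770 and 1.38 CPM in NSKO mice (log2 fold change -0.75, unadjusted p = 0.0598).

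The 4 HCN genes had a median log2 fold change of -0.07. *Hcn2* was at 199, 189 and 184 CPM in control and 185, 191 and 194 CPM in NSKO mice, a log2 fold change of -0.01 (95% interval -0.12 to 0.10). *Hcn3* was at 11 ± 1.76 and 9.47 ± 1.14 CPM (log2 fold change -0.21, 95% interval -0.51 to 0.10).

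Of the 5 sodium channel alpha genes among the members, 4 were tested, with a median log2 fold change of -0.02. *Scn2a*, the Nav1.2 channel of granule cell axons, was at 308, 255 and 273 CPM in control and 341, 267 and 303 CPM in NSKO mice. *Scn8a*, the Nav1.6 channel of the Purkinje cell initial segment, was at 305, 306 and 292 CPM in control and 304, 256 and 293 CPM in NSKO mice, and *Scn1a*, the Nav1.1 channel of inhibitory neurons, at 192, 157 and 160 CPM and 194, 165 and 165 CPM. The genotypes overlapped in all 3 genes, and their unadjusted p values were 0.179, 0.222 and 0.612. *Scn2a* made up 39.8%, 37.4% and 39.4% of the alpha level per length in control and 42.1%, 40.3% and 41.4% in NSKO mice, and *Scn8a* 33.9% ± 2.17 and 31.3% ± 1.08 (SD, n = 3).

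The 4 sodium channel beta genes had a median log2 fold change of 0.02. *Scn4b*, the subunit that gives Purkinje cells their resurgent sodium current, was at 128, 97.6 and 96.8 CPM in control and 104, 107 and 103 CPM in NSKO mice, with control mouse 1 the highest of all 6. *Scn3b* was at 4.30, 3.55 and 4.31 CPM in control and 4.71, 4.62 and 5.63 CPM in NSKO mice, which did not overlap (log2 fold change 0.29, unadjusted p = 0.105). *Scn2b* was at 410 ± 23.0 and 427 ± 33.2 CPM.

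Proteins that anchor, traffic or tune these channels were read from a list of 39 partner genes, of which 38 were tested. None passed the threshold in edgeR, 3 were higher (7.89% against 2.25% of all genes tested) and 1 lower (2.63% against 3.14%) at an unadjusted p below 0.05, and the median log2 fold change was 0.01, with 20 above and 18 below 0. *Fgf14*, an intracellular FGF that binds sodium channel tails and is mutated in spinocerebellar ataxia, was at 49.7, 41.7 and 46.9 CPM in control and 65.9, 58.3 and 49.6 CPM in NSKO mice. NSKO mice 1 and 2 were above all control mice and NSKO mouse 3 lay just under control mouse 1, with a log2 fold change of 0.33 and an edgeR adjusted p of 0.607. With no filter on low counts the edgeR adjusted p of *Fgf14* was 0.00164, and over all alternatives it ranged from 0.00164 to 1. *Lrrc38*, a BK gamma subunit, was at 9.99, 7.93 and 9.32 CPM and 11.9, 11.6 and 11.2 CPM (log2 fold change 0.34, unadjusted p = 0.014). *Cntn2*, the adhesion protein of juxtaparanodes, was at 438, 448 and 433 CPM and 406, 395 and 420 CPM (log2 fold change -0.11, unadjusted p = 0.0398).

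The 47 members outside the naming rule had mean counts from 10.2 to 7080. The naming rule took the lowest p values, so that those of the 46 tested among them were 0.116 or more in edgeR follows from the choice. Their log2 fold changes ran from -0.55 to 0.49 with a median of 0.03. The most abundant of them, *Kcnt1*, a sodium-activated potassium channel named for its level, was at 369, 452 and 406 CPM in control and 345, 388 and 401 CPM in NSKO mice, and control mouse 2 was the highest of the 6.

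Control mouse 2 stood apart within the members. It had the lowest value of the 6 mice in 29 of 84 members, 34.5% against 22.0% of all genes tested, and its median log2 deviation from the mean over the 6 mice was -0.05 over members and 0.0025 over all genes. Without control mouse 2 the members' median log2 fold change was -0.0014, and without control mouse 1 it was 0.07. Control mouse 2 was also the library with the fewest counts on genes, 14431260, and the part of depth in its place was not tested.

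**Figure D5:**
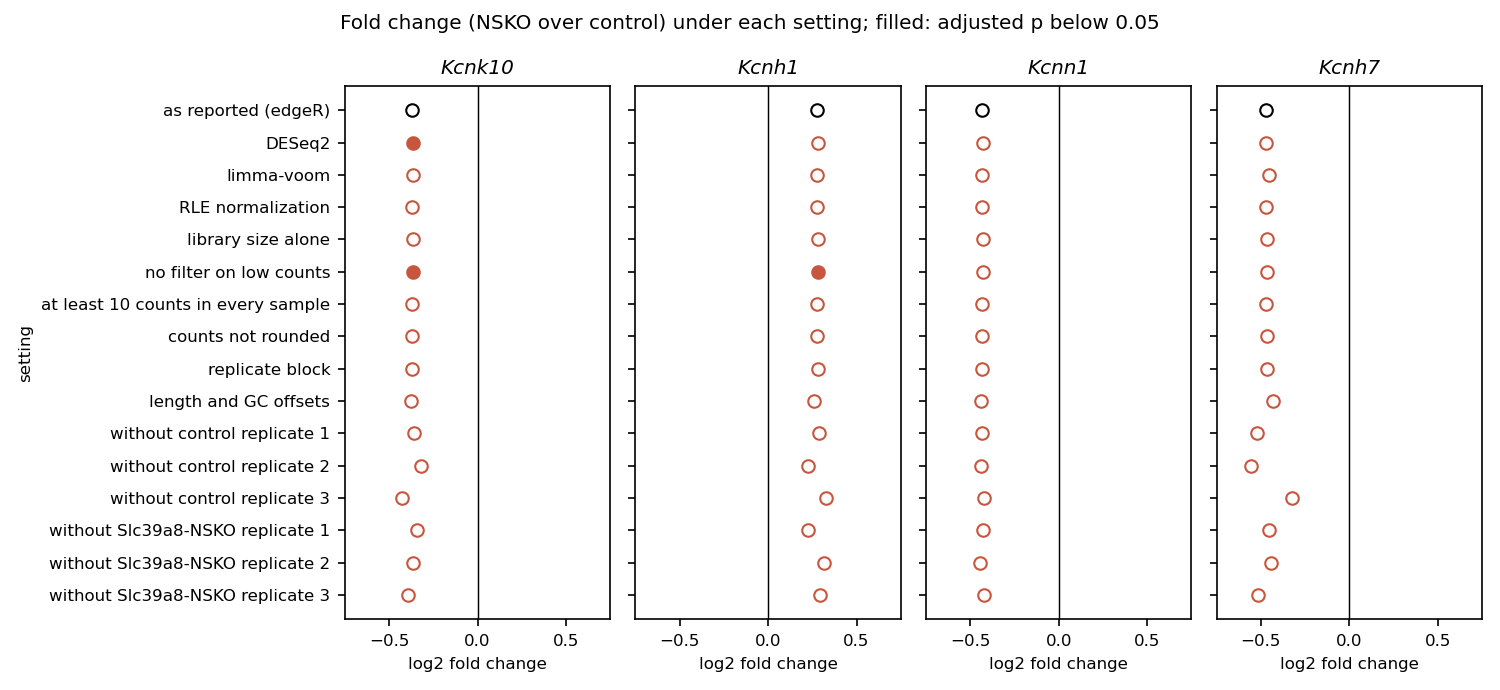
Log2 fold change (NSKO over control) of the 4 channel genes with the lowest p under each alternative setting, with open points at an adjusted p of 0.05 or more and filled points below it. The fold changes stay on the same side of 0 in all settings shown. This is no separate support, since the genes were picked by their p in these same mice. Only *Kcnk10* (DESeq2, no filter) and *Kcnh1* (no filter) have filled points.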

How the data were processed

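RNA-Seq was run on the cerebellum of 6 mice, 3 per genotype. Per the labels and the study's methods, cDNA primed with oligo-dT was read from both ends, STAR aligned the reads to mm10, and RSEM counted them. The versions, and whether counting used strand, are not given in the sources used here. The authors deposited expected counts per gene, not normalized for library size or gene length, which were rounded to whole numbers. The 92 spike-in entries were left out, and names and positions came from GENCODE vM21 (GRCm38), which held 53620 of the 53715 genes.

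Counts were filtered with filterByExpr, scaled with TMM factors and tested with edgeR 4.0.16 (quasi-likelihood, Benjamini-Hochberg over 16330 genes, threshold 0.05) in R 4.3.3. The scripts were tested on simulated data. Levels per length divide CPM by merged exon length, and promoter windows and their letters are RefSeq's. Alternatives were DESeq2 1.42.0, limma 3.58.1 (voom), RLE factors, library size alone, no filter, at least 10 counts in every sample, counts not rounded, a replicate block, loess offsets for length and GC content (span 0.3), a member minimum of 50 counts, a threshold of 0.1 and leaving out each mouse.

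The members and gene lists were chosen with earlier results of these data known. Named genes were members past the threshold, the 12 with the lowest unadjusted p, the 10 highest per length, the lowest p of each class, a list of members known in cerebellar cells, and the 3 partners with the lowest p. The single values of 5 members are not reported here. The p values measure the spread between libraries that the methods describe as separate mice and a figure legend as technical triplicates.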

Additional observations from a re-analysis of the deposited data

How the results depend on the processing

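The number of members past the threshold was 1 with DESeq2, 2 with no filter on low counts and 1 at a threshold of 0.1, and it was 0 in all fits that left out a mouse. At an unadjusted p below 0.05 the count of members was 4 with DESeq2 and 13 with no filter (15.3% against 5.45% of all genes). With DESeq2 this was 4.71% of members against 1.96% of all genes with a p, including genes its own filter left without an adjusted p. In these 2 settings the shares over all genes take in scarce genes that the main filter removed. The count was 12 with the replicate block (14.3% against 7.44%) and 5 to 14 when a mouse was left out. The latter were 5.88% to 16.9% against 4.33% to 8.60%, the 14 being without control mouse 1. Over all genes 37 passed with DESeq2, 178 with no filter, 41 with the replicate block, 28 with length and GC offsets, 27 at a threshold of 0.1, and 9 to 38 when a mouse was left out. With fewer mice the genotypes failed to overlap for 16 to 33 members, 19.0% to 39.3% against 18.4% to 25.5% of all genes, the 33 being without control mouse 1.

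The members' median log2 fold change ran from -0.0014 to 0.0665 when a mouse was left out. The class medians ran from 0.035 to 0.1358 for Kv3, from -0.025 to 0.0519 for Kv4 and KChIP, from -0.0864 to 0.1194 for calcium- and sodium-activated channels, from -0.1147 to 0.0049 for K2P channels, from -0.1711 to 0.0322 for HCN channels and from -0.0114 to 0.0979 for sodium channel beta subunits. The cause was not tested.

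The 33 members of the naming rule, the 3 partners with the lowest p and *Slc39a8* make 37 genes. Of these, 3 gained a call with no filter (*Kcnk10*, *Kcnh1* and *Fgf14*) and 1 with DESeq2 (*Kcnk10*). *Kcnt1* and the genes named after their values were seen are not among the 37. The sign of *Kcnq3*, near 0, turned (0.0002 with library size alone, 0.0009 with no filter, 0.0035 with length and GC offsets). When a mouse was left out, log2 fold changes ran from -0.0292 to 0.0256 for *Hcn2*, -0.1055 to 0.038 for *Kcnd2*, -0.0421 to 0.0613 for *Kcnq3*, -0.0396 to 0.1438 for *Scn1a*, -0.005 to 0.1017 for *Scn2b* and -0.111 to 0.1082 for *Scn4b*. With no filter 1 partner passed.

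Whether the replicate numbers pair the mice was not settled here. Deviations of same-numbered mice correlated at 0.167, 0.129 and 0.0107, and those of differently numbered mice at -0.194 to 0.0731. The values of mice 1 and 2 with their own numbers were the highest. Control mouse 3 correlated more with NSKO mouse 1 (0.0268) than with its own number. The replicate block moved the count of all genes past the threshold from 16 to 41 and made no call among the members, where the adjusted p of *Kcnk10* was 0.0845. Counts of 10 to 100 per member limited the precision of 27 of 84 log2 fold changes.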
